A study of Mus musculus with 4 samples.

Results

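Cytosolic ribosomal protein genes were compared between naive CD4 T cells of mice that lack BTG1 and BTG2 in T cells and of littermates that keep both. The genes were all protein-coding genes of the GENCODE mouse release M21 annotation (GRCm38) whose symbol starts with Rpl or Rps followed by a digit, by the letter a or by p0, p1 or p2, without the Rps6k kinases. This rule uses names and no measured value. It gave 92 genes of 48858 with a joined transcript. Of these, 46 encode proteins of the large subunit, 31 encode proteins of the small subunit, 8 are paralogues of such genes, and 6 carry a pseudogene name although the annotation calls them protein-coding. The remaining gene, Rps19bp1, encodes a protein named for binding RPS19 that is no ribosomal protein. After a filter on low counts 84 of the 92 were tested, which included all 77 genes of the large and small subunit classes. The 8 untested genes were Rpl10l, Rpl39l, Rpl3l, Rpl9-ps1, Rpl10-ps3, Rpl36-ps4, Rpl36a-ps1 and Rps12-ps3, with 0 to 5 estimated counts in any library.

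The series holds 4 libraries of total RNA depleted of rRNA. The 2 double-knockout (DKO) libraries came from mice labelled Btg1f/f Btg2f/f-CD4-Cre, in which Cre recombinase is expressed from Cd4 sequences and removes the loxP-flanked Btg1 and Btg2 alleles in the T cell lineage. The 2 wild-type (WT) libraries came from littermate controls labelled Btg1f/f Btg2f/f, which carry the same loxP-flanked alleles and for which no Cre is named. Cells were sorted as TCRb+CD4+CD25-CD62LhiCD44low, and libraries were made with a SMARTer stranded pico-input kit, which primes at random along the RNA. Neither age nor sex of the mice was used here. Since the labels mention pairs of mice, each library was taken as a separate animal. Per the title of the series, the study asked how BTG1 and BTG2, which recruit the CCR4-NOT deadenylase to mRNA, maintain quiescence by destabilizing mRNA.

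Each ribosome carries a single copy of nearly every cytosolic ribosomal protein, so a cell keeps the output of these genes close to a fixed ratio. Their mRNAs are short, abundant and long-lived. Most start with an uninterrupted run of pyrimidines after a cap-adjacent C, the terminal oligopyrimidine (TOP) motif, through which the kinase mTORC1 and the binding protein LARP1 set their translation and stability. Resting lymphocytes hold a large store of such mRNAs and translate it when they are activated. Many of the genes also house small nucleolar RNAs (snoRNAs), guides of rRNA modification, in their introns.

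The targeted genes were checked first. Btg1 had 6.06 and 5.77 CPM (counts relative to the TMM-scaled library size) in the DKO libraries, against 529.5 and 469.9 CPM in the WT libraries, a log2 fold change of −6.40 (SE 0.19, edgeR quasi-likelihood test, Benjamini-Hochberg adjusted p = 1.43e-06). Btg2 had 0.294 and 0.323 CPM in DKO, against 92.95 and 92.1 CPM in WT (log2 fold change −8.18, SE 0.21, edgeR adjusted p = 8.76e-07). Both fell, so the target genes match the labels in all 4 libraries. Total estimated counts were 16567226 and 17827631 in DKO and 14970076 and 13889894 in WT. The mean fragment length implied by the deposited effective lengths was 133 and 142 bases in DKO and 124 and 120 bases in WT. Nuclear protein-coding genes without Lars2 took 35.7% and 40.7% of the counts on genes in DKO and 30.9% and 30.7% in WT. Lars2 was likewise left out of every share of nuclear protein-coding counts or TPM given below. All 10 naive CD4 T cell markers were tested and present, with a summed level of 4171 and 4086 CPM in DKO and 3668 and 4252 CPM in WT. For 7 of 8 regulatory T cell markers the DKO libraries were both above the WT libraries, with sums of 65.9 and 83.1 CPM in DKO against 34.2 and 40.6 CPM in WT. The 6 CD8 T cell markers summed to 53.1 and 48.9 CPM in DKO against 32.2 and 37.9 CPM in WT (Cd8a at 0.0589 and 0.231 CPM in DKO and 0.431 and 0.0863 CPM in WT). Of the 4 that were tested, Ctsw, Klrd1 and Cd8b1 were higher in both DKO libraries and at an unadjusted p under 0.05. Over all tested genes, 19.8% were higher in both DKO libraries and 3.82% were higher at this p. Ctsw had 17.25 and 17.5 CPM in DKO and 7.39 and 7.86 CPM in WT (edgeR adjusted p = 0.0598), and Cd8b1 8.54 and 12.9 CPM in DKO and 6.75 and 7.42 CPM in WT (edgeR adjusted p = 0.603). The 9 effector and memory markers summed to 42.3 and 44.8 CPM in DKO and to 22.1 and 24.7 CPM in WT, nearly all of it Cd44 and Il2rb. Cd44 had 29.3 and 28.6 CPM in DKO and 15.1 and 16.8 CPM in WT. Il2rb had 9.83 and 12.6 CPM in DKO and 5.89 and 5.18 CPM in WT. Only 3 of the 9 were tested, and Ly6c2 among these overlapped. B cell markers reached 148 to 165 CPM in DKO and 140.5 to 183 CPM in WT, nearly all of it Ighm, with Blk at 0 in all libraries. Myeloid markers summed to 13.9 to 17.5 CPM in DKO and 13.7 to 15.8 CPM in WT with S100a8 and S100a9 at 0, and erythroid markers to 0.118 to 1.02 CPM in DKO and 0.431 to 0.518 CPM in WT. The part of these lists and of fragment length in the results on ribosomal protein genes was not tested, apart from the fit with effective lengths given with the lengths.

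Ribosomal protein mRNAs made up a smaller share of the nuclear protein-coding counts in the DKO libraries. The 92 genes together took 11.7% and 9.81% of these counts in DKO, against 13.4% and 16.5% in WT (means 10.8 ± 1.34% and 14.9 ± 2.20%, SD, n = 2 each). The groups did not overlap, but an exact permutation test of 2 against 2 libraries cannot go below p = 0.3333. As a share of all counts on genes, in which non-coding RNA weighs most, the same genes took 4.18% and 3.99% in DKO against 4.14% and 5.06% in WT, and the groups overlapped. By TPM, which divides by effective length, the share of the nuclear protein-coding sum was 32.7% and 29.2% in DKO and 36.5% and 40.7% in WT. In bulk samples such as these, fewer cells of a type and less RNA per cell cannot be told apart.

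**Figure D1:**
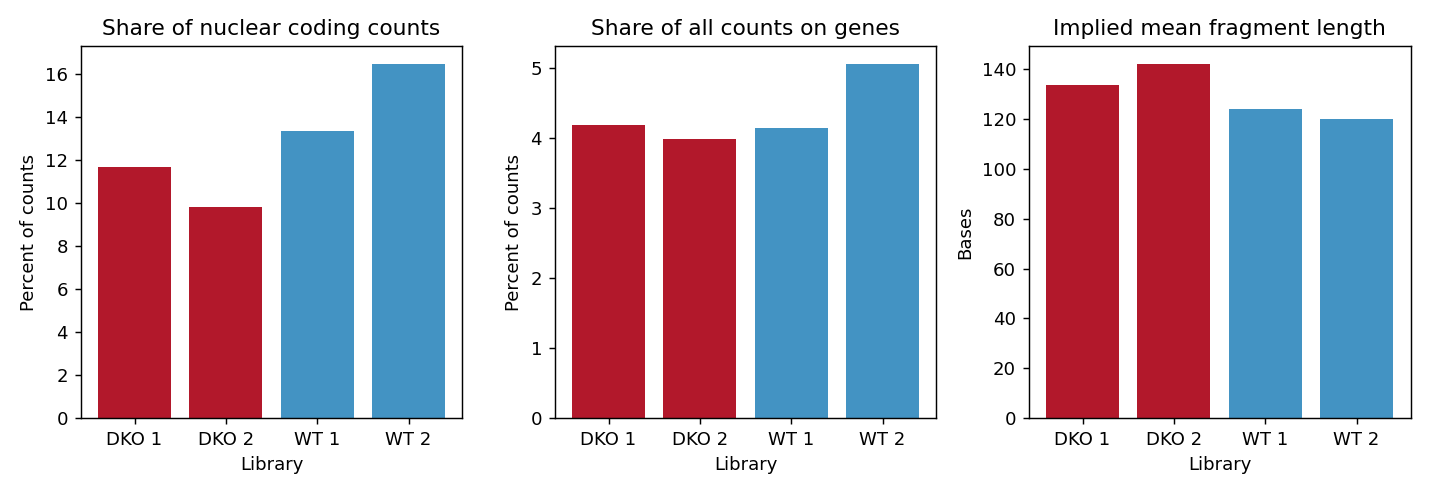
Bars give, for each of the 4 libraries, the share of nuclear protein-coding counts taken by the 92 ribosomal protein genes (percent, left), their share of all counts on genes (percent, middle) and the implied mean fragment length (bases, right); DKO bars are red and WT bars blue. The left share was 9.81% to 11.7% in DKO and 13.4% to 16.5% in WT, the middle share overlapped between the groups, and fragments were 133 to 142 bases long in DKO and 120 to 124 bases in WT.

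The share was smaller in DKO for both subunits. Large subunit genes took 6.76% and 5.74% of the nuclear protein-coding counts in DKO, against 7.77% and 9.55% in WT. Small subunit genes took 4.82% and 3.98% in DKO, against 5.47% and 6.81% in WT. The ratio of large to small subunit counts was 1.40 and 1.44 in DKO and 1.42 and 1.40 in WT, so the groups overlapped and the balance between the subunits differed by less than the spread between libraries.

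Gene by gene, most members lay lower in DKO on the TMM scale, but none passed the test. With edgeR's quasi-likelihood test and Benjamini-Hochberg adjustment at 0.05, 0 of the 84 tested members were called in either direction, against 0.124% of all 12863 tested genes, which is 16 genes, 7 higher and 9 lower. With library totals in place of TMM factors the calls over all genes were 194 higher and 66 lower, and with RNA polymerase III transcripts as the standard they were 472 higher and 22 lower. At an unadjusted p under 0.05, 50 of the 84 members were lower, where 4.35% of all tested genes were, and 0 were higher, where 3.82% were. DESeq2 called 9 of the 84 members lower and 0 higher, against 1.03% of all tested genes called lower by it, and limma on log2(TPM + 1) called 0, against 0.0311% of all genes called lower. edgeR called 20 members lower without the filter on low counts (0.98% of all genes), 3 when only protein-coding genes were fitted (0.149%) and 1, Rpl5, with library totals (0.513%). Both DKO libraries lay below both WT libraries for 59 of the 84 members, against 18.8% of all tested genes, and above them for 0 members, against 19.8% of all tested genes. For the other 25 members the libraries overlapped.

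The size of the difference was much alike from gene to gene. The median log2 fold change of the 84 members was −0.51, which is 0.704 times the WT level, against −0.01 for all tested genes and 0.02 for protein-coding genes outside the set. The log2 fold change was below 0 for 81 of the 84 members, while with RNA polymerase III scaling it was below 0 for 2 of them. That scaling put the median of all genes at 0.90 and that of the members at 0.43, so the members lay 0.48 below all genes on it. With library totals the 2 medians were 0.33 for all genes and −0.17 for the members. The quartiles of the members were −0.58 and −0.42, whereas those of all tested genes were −0.26 and 0.19. All tested genes include many weakly expressed ones, and no set matched for level was compared, so the narrower spread cannot be called particular to the members. Across the 84 members, Pearson's r between log2 mean CPM and log2 fold change was −0.57 and Spearman's rho −0.18, as a description. The large subunit class had a median of −0.53 over 46 genes and the small subunit class −0.52 over 31 genes. With RNA polymerase III scaling, and with Rpl9-ps6 counted in the large subunit, both medians were 0.42.

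Replicates of a genotype differed nearly as much as the genotypes did. Between the WT libraries, 83 of the 84 members were higher in WT 2 than in WT 1, by a median of 0.42 on the log2 CPM scale. Between the DKO libraries, 83 of the 84 were lower in DKO 2 than in DKO 1, at a median difference of −0.31. The closest libraries of different genotype, DKO 1 and WT 1, differed by a median of −0.13, with 59 members lower in DKO 1 and 25 higher. The median member level was 8.63 and 8.36 log2 CPM in DKO and 8.71 and 9.18 log2 CPM in WT. Without WT 2 the median log2 fold change of the members was −0.28, and without DKO 2 it was −0.33. It was −0.71 without WT 1, where edgeR called 11 members and 0.938% of all genes lower, and −0.65 without DKO 1.

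**Figure D2:**
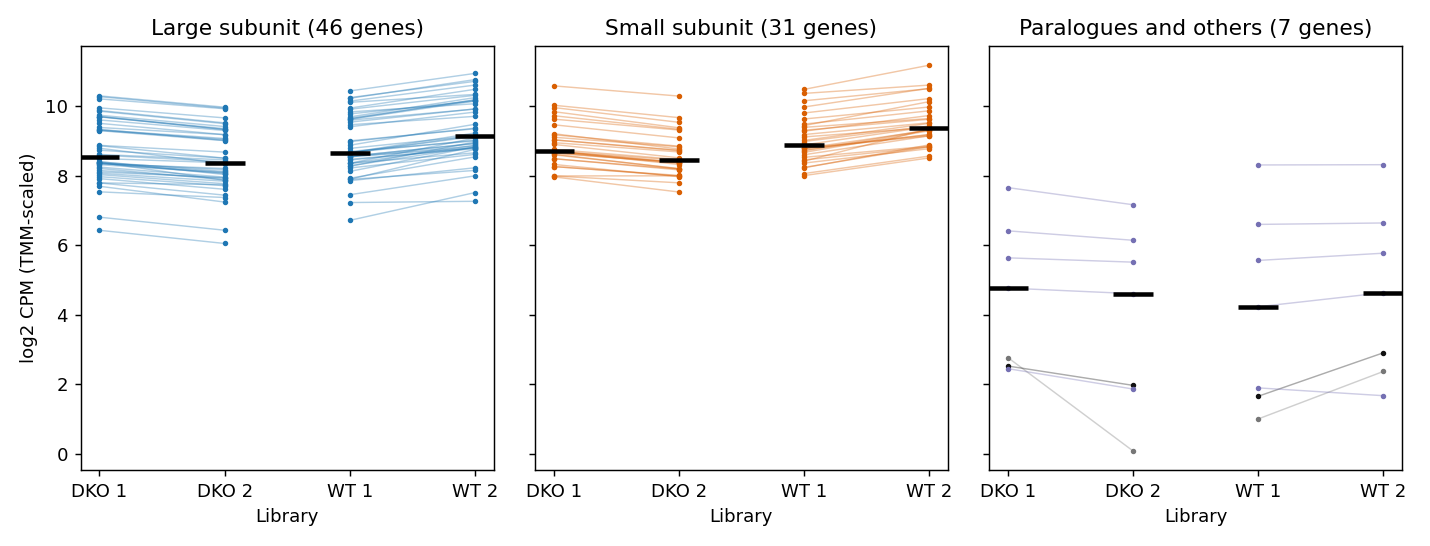
Points give log2 CPM (TMM-scaled) of each tested gene in each of the 4 libraries, for 46 large subunit genes, 31 small subunit genes and 7 paralogues and others; thin lines join the values of a gene within a genotype and black bars are medians. Median levels were lowest in DKO 2 and highest in WT 2 in both subunits, and those of WT 1 lay closer to DKO 1 than to WT 2.

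The proteins of the ribosomal stalk, which binds the GTPases of translation, included the most abundant member per length. Rplp2 averaged 325 TPM over the 4 libraries. It had 1236 and 984 CPM in DKO, against 1196 and 1737 CPM in WT, and the groups overlapped (log2 fold change −0.40, SE 0.23, edgeR adjusted p = 0.711). Its partner Rplp1 had 938.5 and 733 CPM in DKO and 984.5 and 1431 CPM in WT (log2 fold change −0.53, SE 0.23). Rplp0, which anchors both on the large subunit, had 989.5 and 809.9 CPM in DKO and 1131 and 1557 CPM in WT (log2 fold change −0.58, SE 0.22). For Rplp1 and Rplp0 both DKO libraries lay below both WT libraries, with edgeR adjusted p of 0.610 and 0.526.

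Another abundant large subunit gene had DKO 1 and WT 1 close together and WT 2 apart. Rpl13a, whose protein also takes part in translational silencing after interferon in human cells, had 1256 and 1002 CPM in DKO and 1386 and 1965 CPM in WT. Its log2 fold change was −0.57 (SE 0.23, edgeR adjusted p = 0.578). Of its counts, 24.4% fell on coding transcripts. Coding transcript Rpl13a-201 had 225.4 and 225.2 CPM in DKO and 160 and 374 CPM in WT, with overlap. Among the minor coding transcripts, Rpl13a-207 was higher and Rpl13a-215 lower in both DKO libraries. In TPM, which are scaled to the sum over coding and non-coding transcripts, the difference of the whole gene was smaller. Rpl13a was at 265 and 242 TPM in DKO and 258 and 296 TPM in WT, and Rplp2 at 336 and 313 TPM in DKO and 302 and 349.7 TPM in WT, both overlapping.

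In the abundant small subunit genes DKO 2 was the lowest library and WT 2 the highest. Rps24, mutated in some cases of Diamond-Blackfan anemia in human patients, had 1042 and 814 CPM in DKO and 1319 and 1557 CPM in WT, with no overlap (log2 fold change −0.63, SE 0.20, edgeR adjusted p = 0.416). Rps28 had 400.3 and 334 CPM in DKO and 427 and 582 CPM in WT, also without overlap. Rps29, whose protein binds zinc, had 523 and 422 CPM in DKO and 517 and 725 CPM in WT, and its groups overlapped. Rpsa, which is known as a laminin receptor precursor as well as a ribosomal protein, had the highest CPM of the named members, at 1533 and 1251 CPM in DKO and 1429 and 2313 CPM in WT, with overlap (log2 fold change −0.43, SE 0.26, edgeR adjusted p = 0.725). Its WT libraries differed by more than the 2 genotypes did.

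The smallest p-values belonged to Rpl12, Rpl5, Rps27rt, Rpl31 and Rps18, all lower in DKO. Rpl12 encodes the protein at the base of the stalk and lies on chromosome 2 at 32961559 to 32965345, plus strand. It had 86.3 and 66.3 CPM in DKO, against 149.9 and 153.7 CPM in WT (log2 fold change −0.99, SE 0.16, edgeR adjusted p = 0.0750). Rpl5 encodes the protein that brings 5S rRNA into the large subunit and, with RPL11, can bind the p53 regulator MDM2; it lies on chromosome 5 at 107900502 to 107909005, plus strand. It had 207 and 151 CPM in DKO, against 349.5 and 446 CPM in WT (log2 fold change −1.15, SE 0.20, edgeR adjusted p = 0.101). For both genes the DKO libraries were well below the WT libraries. DESeq2 called Rpl12 lower with an adjusted p of 5.9e-05 and Rpl5 with 3.0e-05. Over all alternatives the adjusted p ran from 1.9e-06 to 0.853 for Rpl12 and from 6.1e-09 to 0.757 for Rpl5. Rpl31, a protein near the exit of the peptide tunnel, had 276 and 246 CPM in DKO and 373 and 447 CPM in WT (log2 fold change −0.65, SE 0.16). Rps18, in the head of the small subunit, had 419 and 333 CPM in DKO and 554 and 668 CPM in WT (log2 fold change −0.70, SE 0.19). Their edgeR adjusted p-values were 0.249 and 0.286, and both genes were also lower by DESeq2. Of the Rps18 counts, 43.5% fell on coding transcripts. Coding transcript Rps18-201 had 194 and 146 CPM in DKO and 142 and 329 CPM in WT, with overlap. The minor coding transcript Rps18-206 was lower in both DKO libraries. Rps18-209, annotated as processed transcript, had 219 and 178.5 CPM in DKO and 384 and 324.5 CPM in WT.

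**Figure D3:**
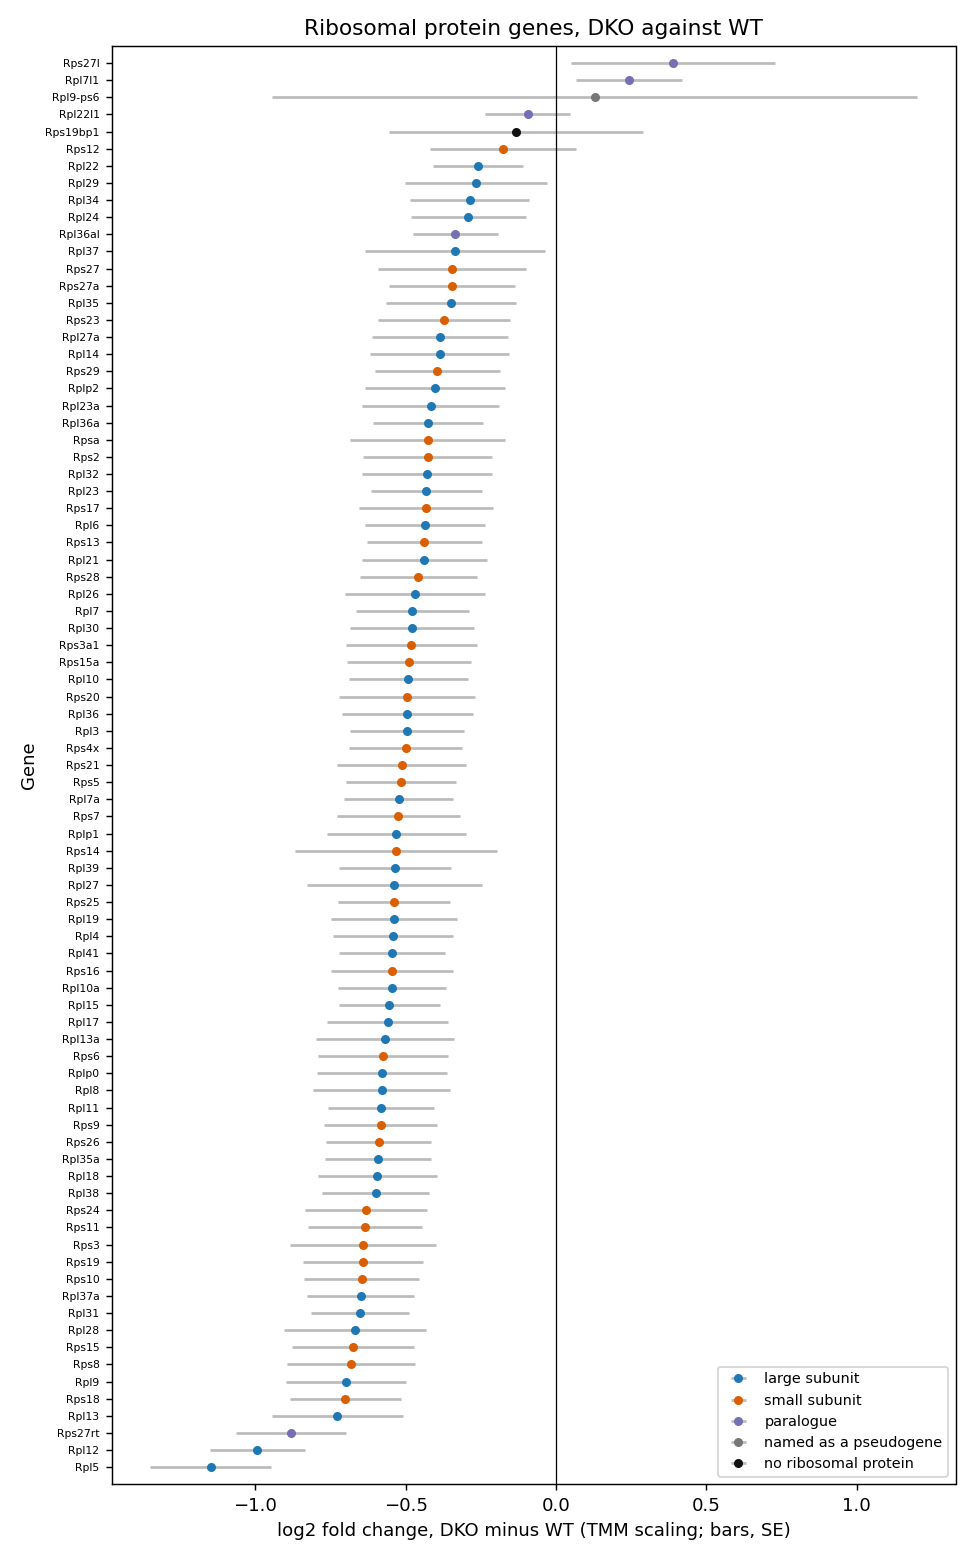
Log2 fold changes (DKO minus WT, TMM scaling) of 83 of the 84 tested genes, ordered by value, with bars of 1 SE and colours for the class of the gene. Values ran from −1.15 (Rpl5) to 0.39 (Rps27l), and 81 of 84 were below 0, against 2 of 84 with RNA polymerase III scaling.

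Most of the difference in Rpl5 lay in a transcript annotated as keeping an intron. Rpl5-204, annotated as retained intron, holds the snoRNA Snord21 within an exon and had 141 and 86.0 CPM in DKO, against 255.8 and 361 CPM in WT. The coding transcript Rpl5-201 had 56.8 and 52.6 CPM in DKO, against 51.5 and 67.3 CPM in WT, so its groups overlapped. Coding transcripts held 21.7% of the counts of the gene. Summed over coding transcripts only, the log2 fold change of Rpl5 was −0.18 (SE 0.13, edgeR adjusted p = 0.757). With all snoRNA-holding transcripts left out, an alternative chosen after the data were seen, it was −0.44 (SE 0.13, edgeR adjusted p = 0.359). Reads from inside Snord21 match the snoRNA and this transcript alike. Snord21 itself was estimated at 91.3 and 40.3 CPM in DKO and 135 and 382 CPM in WT (log2 fold change −1.97, edgeR adjusted p = 0.704).

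Rpl12 showed the difference in both kinds of transcript. Its retained-intron transcript Rpl12-207, which holds Snora65, had 24.2 and 16.1 CPM in DKO, against 41.7 and 58.7 CPM in WT. Its coding transcript Rpl12-203 had 56.1 and 46.1 CPM in DKO, against 97.7 and 80.8 CPM in WT, again without overlap. With coding transcripts only, the log2 fold change of the gene was −0.87 (SE 0.16, edgeR adjusted p = 0.0778). In the stalk gene Rplp2, the minor transcript Rplp2-205, which holds Snora52, had 9.24 and 3.28 CPM in DKO and 28.1 and 25.4 CPM in WT. The main coding transcript Rplp2-203 had 877 and 702 CPM in DKO and 953 and 1254 CPM in WT. Coding transcript Rplp2-201, with 23.7% of the counts of the gene, had 329 and 262 CPM in DKO and 187 and 423.5 CPM in WT, with overlap. The minor coding transcript Rplp2-202 overlapped as well.

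The snoRNAs within the transcripts of Rpl5 and Rpl12 are shown because their bases are counted with the host. Capitals mark the C box and D box of Snord21, a guide of rRNA methylation, and the ACA box of Snora65, a guide of pseudouridylation (GRCm38).
Snord21 (chr5:107904555-107904648, plus strand): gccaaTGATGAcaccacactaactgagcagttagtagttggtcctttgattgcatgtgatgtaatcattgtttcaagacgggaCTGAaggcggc
Snora65 (chr2:32963291-32963420, plus strand): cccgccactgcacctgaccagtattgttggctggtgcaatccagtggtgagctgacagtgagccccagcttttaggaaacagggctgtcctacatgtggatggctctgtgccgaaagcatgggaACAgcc

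**Figure D4:**
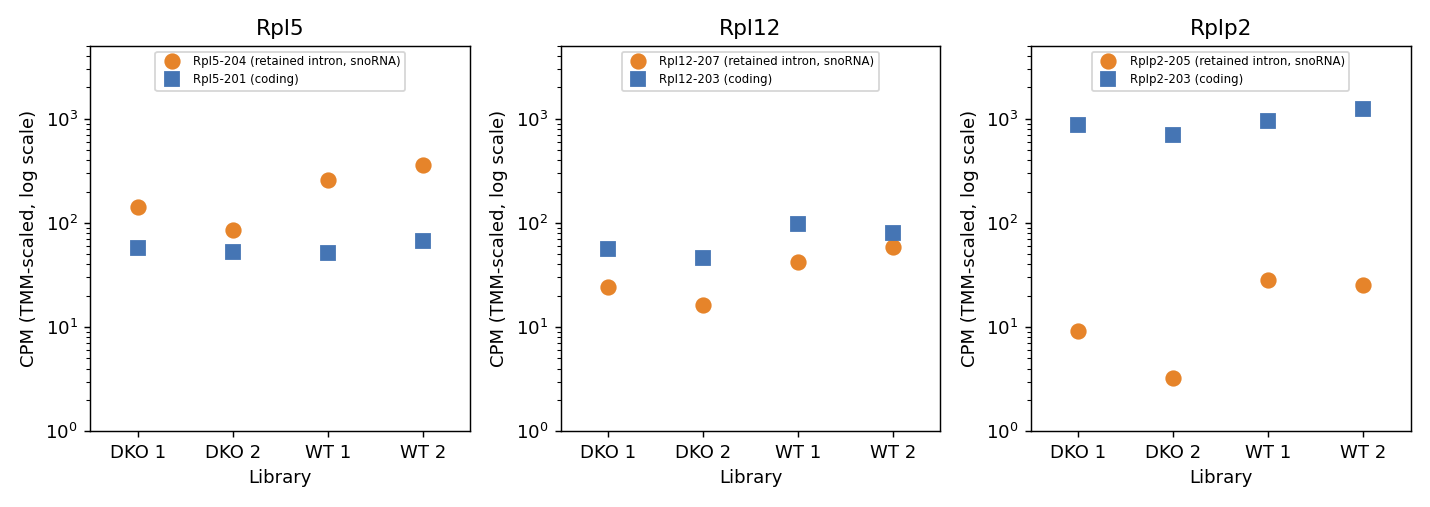
CPM (TMM-scaled, log axis) of a retained-intron transcript that holds a snoRNA (orange circles) and of a coding transcript (blue squares) of Rpl5, Rpl12 and Rplp2 in each of the 4 libraries. The retained-intron transcripts lay lower in both DKO libraries than in both WT libraries in all 3 genes, while the coding transcript of Rpl5 overlapped between the groups.

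Retained-intron transcripts of other members mostly lay lower in DKO as well. Of 9 retained-intron transcripts with a snoRNA and at least 400 counts in all, 7 had both DKO libraries below both WT libraries, with a median log2 ratio of DKO to WT CPM of −1.21. Of 15 retained-intron transcripts without a snoRNA, 13 did, with a median of −0.78. Of 129 coding transcripts without a snoRNA, 73 did and 2 lay the other way, with a median of −0.48. Outside the members, on the same scale and with the same minimum, 42 of 324 retained-intron transcripts had both DKO libraries below both WT libraries and 42 had both above (median −0.08). Of 7365 coding transcripts outside the members, 1003 were below in this way and 1908 above (median 0.07). Transcripts that hold a snoRNA took 2.21% and 1.82% of the member counts in DKO and 2.57% and 2.79% in WT. Without them, a fit chosen after the data were seen, the median over the 84 members was −0.50.

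The annotation places 58 snoRNAs within 30 of the members, and 46 of them were tested. None was called by edgeR, while 14 were lower at an unadjusted p under 0.05, against 4.35% of all tested genes. All 46 had a log2 fold change below 0, with a median of −1.86, and 32 had both DKO libraries below both WT libraries, against 18.8% of all tested genes. In the other 14 the libraries overlapped. These values were much like those of snoRNAs elsewhere: of the 150 tested snoRNAs outside the members, 56 were lower at an unadjusted p under 0.05 and 109 had both DKO libraries below both WT libraries, and over all 196 tested snoRNAs the median was −1.64. The 30 host members had a median log2 fold change of −0.49, and the 47 subunit members without a snoRNA had −0.54, so hosts were not lower than the rest. Between the WT libraries Snord21 ran from 135 to 382 CPM and Snord15a from 80.2 to 105.6 CPM. Among the tested snoRNAs, Snord21 is 94 and Snora52 137 bases long. Implied mean fragments were 133 and 142 bases in DKO and 124 and 120 bases in WT. The part of fragment length in the snoRNA values was not tested.

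Rps27rt is a retrocopy of Rps27 that codes for the same protein and shows how reads divide between near-identical members. It lies on chromosome 9 at 114982366 to 114982739, minus strand, and Rps27 on chromosome 3 at 90212522 to 90213651, minus strand. Rps27rt had 202 and 143 CPM in DKO, against 317 and 319 CPM in WT (log2 fold change −0.88, SE 0.18, edgeR adjusted p = 0.162). It was called lower by DESeq2 (adjusted p = 0.00184), by edgeR without the filter on low counts (5.07e-05) and by edgeR with protein-coding genes only (0.0409), and over all alternatives its adjusted p ran from 5.07e-05 to 1. Rps27 had 790.1 and 636 CPM in DKO, against 695 and 1119 CPM in WT, with overlap (log2 fold change −0.35, SE 0.25, edgeR adjusted p = 0.787). Of the 31-base words of Rps27rt, 92.4% also occur in other genes, so the division of reads between the genes is uncertain. With the counts of Rps27rt added to Rps27, an alternative chosen after the data were seen, the log2 fold change was −0.47 (SE 0.23, edgeR adjusted p = 0.651), and over all alternatives the adjusted p of Rps27 ran from 0.107 to 1.

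The coding sequences, 255 bases each, are printed to show what can and cannot be told apart. Those of Rps27 and Rps27rt are identical, and that of the paralogue Rps27l, a target of p53, has 61 differences from them (76.1% identity), which are in capitals (GENCODE transcripts, GRCm38).
Rps27 and Rps27rt: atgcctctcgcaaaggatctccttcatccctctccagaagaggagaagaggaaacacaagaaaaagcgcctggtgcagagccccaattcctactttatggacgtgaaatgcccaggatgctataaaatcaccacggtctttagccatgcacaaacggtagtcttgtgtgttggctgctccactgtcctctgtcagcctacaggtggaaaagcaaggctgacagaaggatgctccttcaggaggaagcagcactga
Rps27l: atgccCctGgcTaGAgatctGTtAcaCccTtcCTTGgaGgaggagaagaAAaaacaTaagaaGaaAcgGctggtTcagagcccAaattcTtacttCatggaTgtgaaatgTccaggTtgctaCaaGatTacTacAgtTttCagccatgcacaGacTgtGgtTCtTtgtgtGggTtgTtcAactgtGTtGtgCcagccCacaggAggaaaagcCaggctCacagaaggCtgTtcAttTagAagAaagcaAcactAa

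The 5 tested paralogues did not share a direction on the TMM scale. Rps27l had 5.47 and 3.65 CPM in DKO and 3.73 and 3.19 CPM in WT (log2 fold change 0.39, SE 0.34, edgeR adjusted p = 0.838), with overlap. Rpl7l1, a relative of Rpl7 that acts in ribosome assembly, had 27.3 and 24.4 CPM in DKO and 18.8 and 24.9 CPM in WT, also with overlap (log2 fold change 0.24, SE 0.18, edgeR adjusted p = 0.788). Both values stayed above 0 in every scaling run. Rpl22l1 had 49.8 and 45.7 CPM in DKO and 47.3 and 54.6 CPM in WT, at a log2 fold change of −0.09 (SE 0.14). Its relative Rpl22, which mouse alpha-beta T cells need in their development, was named after its values were seen and had 222 and 214 CPM in DKO and 238 and 284 CPM in WT (log2 fold change −0.26, SE 0.15, edgeR adjusted p = 0.712). Rpl36al, a relative of Rpl36a, had 85.3 and 70.7 CPM in DKO and 96.97 and 99.8 CPM in WT, without overlap (log2 fold change −0.34, SE 0.14, edgeR adjusted p = 0.605). Over the 5 tested paralogues the median log2 fold change was −0.09.

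The remaining named genes were weakly expressed. Rpl9-ps6, with 92.7% of its 31-base words in other genes, had 6.83 and 1.06 CPM in DKO and 2.01 and 5.18 CPM in WT. Rps19bp1 had 5.77 and 3.92 CPM in DKO and 3.16 and 7.51 CPM in WT. In both genes the libraries of 1 genotype spanned those of the other, and no difference was detectable at this depth. A count of 3, taken as the floor, equals 0.177 and 0.139 CPM in DKO and 0.215 and 0.259 CPM in WT.

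Length did not order the members. The 26 tested members under 600 bases, by the mean transcript length weighted by counts, had a median log2 fold change of −0.46, and the 58 longer ones had −0.53. Among the shortest, Rpl38, a protein needed for the translation of certain Hox mRNAs in mouse embryos, had 304 and 249 CPM in DKO and 373 and 464 CPM in WT (log2 fold change −0.60, SE 0.18, edgeR adjusted p = 0.368). Among the longest, Rps3, a protein at the mRNA entry site, had 917 and 665 CPM in DKO and 1006 and 1461 CPM in WT (log2 fold change −0.64, SE 0.24, edgeR adjusted p = 0.528). The weighted length of Rps3 includes Rps3-204, a retained-intron transcript of 3183 bases that holds Snord15b and took 40.7% of its counts. Rps20 had 406 and 328 CPM in DKO and 407 and 626.5 CPM in WT (log2 fold change −0.49, SE 0.23). Across the 84 members, which share libraries and much of their depth, Pearson's r between log2 length and log2 fold change was −0.01 and Spearman's rho −0.05, as a description.

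Other protein-coding genes of the same length did not show the same values. Under 400 bases, 6 members had a median log2 fold change of −0.49 and 27 other coding genes −0.20. From 400 to 600 bases, 20 members had −0.45 and 117 other genes −0.06. From 600 to 800 bases, 30 members had −0.54 and 202 other genes −0.05, and from 1000 to 1500 bases, 10 members had −0.48 and 1073 other genes 0.00. The longer fragments of the DKO libraries shorten the effective length of a short transcript more than that of a long one, with a log2 shift (DKO minus WT) of −0.09 under 400 bases and −0.02 from 1000 to 1500 bases. With effective lengths as offsets in edgeR, the median log2 fold change of the members was −0.46, against 0.02 for all genes, and 0 members were called, against 0.124% of all genes called lower.

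**Figure D5:**
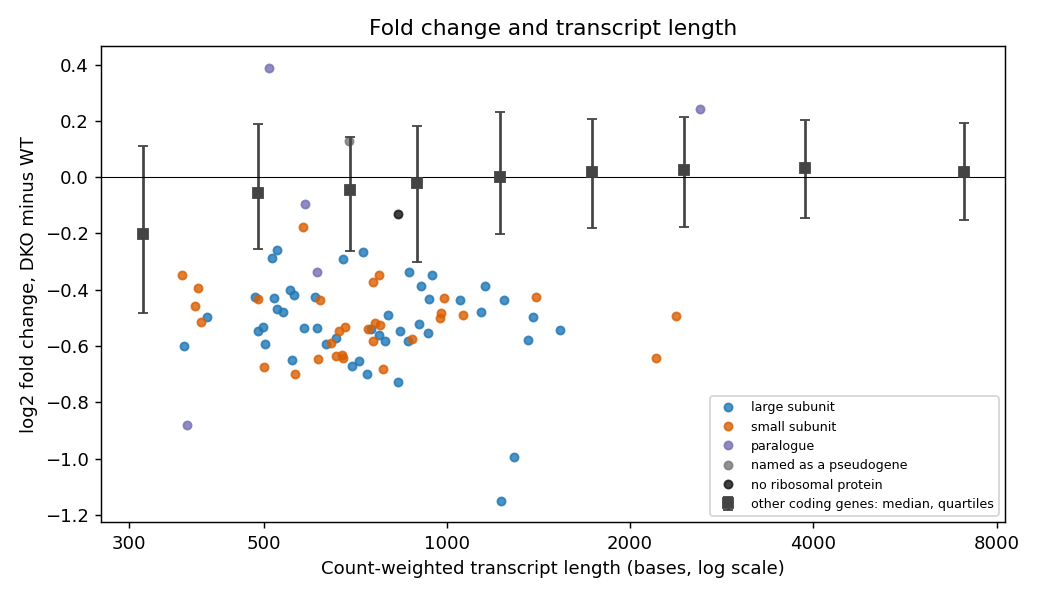
Log2 fold change (DKO minus WT, TMM scaling) of the 84 tested genes against their count-weighted transcript length (bases, log axis), coloured by class, with grey squares and bars for the median and quartiles of other protein-coding genes by length class. Members from 600 to 800 bases had a median of −0.54, against −0.05 for 202 other coding genes of that length; with RNA polymerase III scaling the median of all members was 0.43 and that of all genes 0.90.

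Start sequences were examined because the TOP motif begins at the first base of the mRNA. RefSeq start windows (GRCm38.p6) were found for 66 of the 92 members. For each member only the window nearest the start of its most counted coding transcript was taken. The windows of all genes were not selected in this way, so the percentages compared below rest on unlike sets. A C at the start base followed by at least 4 bases that are C or T, on the strand of the gene, was present in 13 of the 66 (19.7%), against 2.51% of all 32851 windows. The annotated start can lie away from the base where the mRNA begins, so this count says nothing of the other members. The 13 with the run had a median log2 fold change of −0.55 and the 50 tested members with a window and no run had −0.53. The sequence CCGGAAG, the core of sites bound by ETS factors, occurred on either strand within 250 bases before to 50 bases after the start in 24 of 66 members (36.4%), against 8.86% of all windows, and its reverse complement can overlap a pyrimidine run. The 23 tested members with it had a median of −0.52 and the 40 without it −0.54.

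Windows of 10 bases before to 20 bases from the start are printed for 8 members, chosen after their values were seen to show windows with the run and without it. They include Rps6, whose protein S6 kinases phosphorylate, and 6 of the 8 have the run, against the 13 of 66 above. Capitals mark the unbroken run of pyrimidines at the annotated start, and Rpl5 and Rpl12 have none there.
Rps6 (chr4:86857348-86857377, minus strand): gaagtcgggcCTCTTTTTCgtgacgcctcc
Rpl15 (chr14:18270967-18270996, minus strand): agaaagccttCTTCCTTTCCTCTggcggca
Rpl38 (chr11:114668570-114668599, plus strand): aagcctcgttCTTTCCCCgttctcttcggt
Rps18 (chr17:33955646-33955675, minus strand): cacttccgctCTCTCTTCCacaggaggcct
Rps27 (chr3:90213629-90213658, minus strand): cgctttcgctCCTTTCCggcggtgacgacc
Rps27rt (chr9:114982720-114982749, minus strand): ttatcccttgCTTTCCggcggtgacgacct
Rpl5 (chr5:107900518-107900547, plus strand): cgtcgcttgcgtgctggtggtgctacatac
Rpl12 (chr2:32961702-32961731, plus strand): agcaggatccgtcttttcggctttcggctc
Rps6 had 995.5 and 742 CPM in DKO and 1139 and 1450 CPM in WT (log2 fold change −0.58, SE 0.22), and Rpl15 had 268 and 229 CPM in DKO and 327 and 404 CPM in WT (log2 fold change −0.55, SE 0.17). Both were close to the median of the members, and their edgeR adjusted p-values were 0.528 and 0.389.

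Other TOP mRNAs had a median between that of the members and that of all genes. Of 24 other mRNAs known to carry a TOP motif, 0 were called by edgeR, 8 were lower at an unadjusted p under 0.05, against 4.35% of all tested genes, and 17 had both DKO libraries below both WT libraries, against 18.8%. Their median log2 fold change was −0.37. Fau, which encodes a small subunit protein as a fusion to a ubiquitin-like protein, had 438 and 405 CPM in DKO and 595 and 692 CPM in WT (log2 fold change −0.61, SE 0.17, edgeR adjusted p = 0.2997). Rack1, a signalling scaffold on the small subunit, had 553 and 449 CPM in DKO and 656 and 902 CPM in WT (log2 fold change −0.64, SE 0.21). The elongation factor subunits Eef1g and Eef1d and the splicing regulator Hnrnpa1 had log2 fold changes of −0.60, −0.54 and −0.53, with edgeR adjusted p from 0.412 to 0.414.

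Genes that act on ribosomal protein mRNAs or ribosomes, and mitochondrial ribosomal protein genes, had medians closer to 0 and members in both directions. For 20 regulators of their translation, including Larp1, Mtor and the S6 and 4E-BP branches, the median log2 fold change was 0.00, with 7 genes lower and 4 higher in both DKO libraries. The smallest p among them was that of Tial1, which encodes a protein that binds TOP mRNAs, at 13.8 and 14.9 CPM in DKO and 21.7 and 17.8 CPM in WT (log2 fold change −0.46, SE 0.17, edgeR adjusted p = 0.528). For 37 assembly, chaperone and quality control genes the median was −0.10, with 12 lower and 6 higher in both DKO libraries. Among them Nop53, an assembly factor of the large subunit, had 131 and 116 CPM in DKO and 170.4 and 196 CPM in WT (log2 fold change −0.57, SE 0.14, edgeR adjusted p = 0.2503), and the ribosome rescue factor Pelo 6.36 and 4.02 CPM in DKO and 2.66 and 2.76 CPM in WT (log2 fold change 0.93, SE 0.35, edgeR adjusted p = 0.528). The 78 mitochondrial ribosomal protein genes, which are encoded in the nucleus and serve another ribosome, had a median of −0.12, with 16 lower and 7 higher in both DKO libraries. Over all tested genes 18.8% were lower and 19.8% higher in both DKO libraries. No gene of these 3 lists was called by edgeR, and at an unadjusted p under 0.05, 6 were lower and 1 was higher, against 4.35% and 3.82% of all tested genes. The share lower in both DKO libraries among the mitochondrial genes, and the shares at an unadjusted p under 0.05 over the 3 lists together, were thus near or below those of all genes. Among the regulators (7 of 20) and the assembly genes (12 of 37), the share lower in both DKO libraries was above that of all genes. So was the share of assembly genes lower at an unadjusted p under 0.05 (4 of 37).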

How the data were processed

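RNA of 2 DKO and 2 WT libraries was quantified by the authors with kallisto against mm10 or GRCm38, both named in the notes, per the submitters' processing notes. Neither the version, nor the annotation release, nor a strand setting is given in the sources used here. Values were deposited as estimated counts per transcript, unscaled, and TPM, which the authors' kallisto run scaled by effective length to a common sum, per the file headers. Effective lengths were deposited in bases. Reads that fit several transcripts are divided by estimation, so near-identical genes are uncertain, as are overlapping antisense genes.

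Of 126782 transcripts, 125182 (98.7%) were joined by identifier to GENCODE M21, summed to 48858 genes and rounded; those left out held 0.822% to 0.852% of counts. Differences were tested with edgeR 4.0.16 under R 4.3.3 (filterByExpr, TMM, robust quasi-likelihood F test on genotype, Benjamini-Hochberg adjustment at 0.05 over all 12863 tested genes, 10733 of them protein-coding), after tests on simulated data. SE is the absolute log2 fold change over the root of F. Alternatives used DESeq2 1.42.0, limma 3.58.1 on log2(TPM + 1) and log2(TPM + 0.1), RNA polymerase III transcripts or library totals as scale, effective lengths as offsets, no filter, protein-coding genes or transcripts only, pseudogenes added, a replicate block and leaving out each library. Transcript and snoRNA values are CPM of estimated counts. Sequences are from RefSeq windows and GENCODE transcripts. Floors cover counting error only, while the SE also takes in variation between libraries. No molecular identifiers were used.

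The members and lists were chosen with earlier results of these data known. Genes named are Btg1 and Btg2, the stalk genes and Rpsa, the 4 highest in TPM of each subunit, up to 5 in each direction with the smallest p, the 3 shortest and 3 longest, the paralogues, Fau and Rack1, and up to 4 genes per list by p; others are marked. Some genes that this rule names are not reported here.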

Additional observations from a re-analysis of the deposited data

How the results depend on the processing

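The log2 fold changes of the named members kept their sign and side of the threshold in 361 of 430 repeats; in 24 such a member became called and in 45 an uncalled one changed sign. Medians are given for all members, large subunit (with Rpl9-ps6), small subunit and members under 600 bases, in this order. They were −0.51, −0.52, −0.52 and −0.46, and they changed sign to 0.43, 0.42, 0.42 and 0.48 with RNA polymerase III scaling. They were −0.17, −0.18, −0.17 and −0.12 with library totals, −0.097, −0.118, −0.0936 and −0.0069 with limma on log2(TPM + 1), and −0.0983, −0.119, −0.0949 and −0.0069 with limma on log2(TPM + 0.1). The median of all genes was 0.0843 with limma on log2(TPM + 1) and 0.265 with log2(TPM + 0.1). With TPM scaled to the protein-coding sum the member medians were −0.329, −0.35, −0.326 and −0.238, against 0.135 for all genes. Leaving out 1 library put the median of members under 600 bases between −0.70 and −0.14. The member share differed by −4.19 percentage points between DKO and WT in counts and by −7.59 in TPM. Members called lower were 0 with edgeR, 9 with DESeq2, 20 without a filter, 3 with protein-coding genes only, 1 with library totals, 3 with the replicate block and 0 to 11 without 1 library. Over all genes, 7 were called higher and 9 lower. These counts were 55 and 133 with DESeq2, 472 and 22 with RNA polymerase III scaling, 194 and 66 with library totals, 13 and 16 with effective lengths, and 141 and 254 without a filter. They were 32 and 16 with protein-coding genes only, 1 and 4 with limma on log2(TPM + 1), 1 and 5 with a pseudocount of 0.1, and 1 and 5 when TPM was scaled to the protein-coding sum. With protein-coding transcripts only, 5 were called lower. Without 1 library, 12 to 34 were called higher and 28 to 131 lower.

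The labels give both groups the same replicate numbers but do not say what a number marks, and deviations of same-numbered libraries correlated at −0.316. The replicate block called 53 genes higher and 89 lower. The crossed replicate block, added after seeing the data, called 136 higher and 384 lower, and 58 members lower. The causes of these changes were not tested.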

Other observations

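Member transcripts annotated for nonsense-mediated decay held 5.85% and 5.69% of the member counts in DKO and 6.42% and 6.24% in WT, and those annotated as retained intron held 6.29% and 5.99% in DKO and 7.86% and 7.11% in WT. In both classes the DKO libraries lay below the WT libraries, and the shares were not tested. Pseudogenes that share at least 50% of their 31-base words with a member numbered 281. Their counts equalled 6.95% and 6.74% of the member counts in DKO and 7.26% and 6.65% in WT, and the groups overlapped.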
